A study of Caenorhabditis elegans with 2 samples.

Results

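Coding exon peaks are ranked ChIP-seq peaks of HLH-26 whose summit lies in a protein-coding segment of a gene. Left out were summits in a promoter window, which starts 500 bp before a protein-coding transcript start and ends 100 bp after it, and summits within 200 bp of a tRNA, rRNA, snRNA, snoRNA or miRNA gene. Of 35284 ranked peaks on the 6 nuclear chromosomes, 13224 had a summit in a coding segment. After 84 near short RNA genes and 1167 in promoter windows were removed, 11973 remained, which is 33.9% of the nuclear list (exact binomial 95% interval 33.4 to 34.4%). The coding sequence open to this rule is 22.0 Mb, or 22.0% of the nuclear genome.

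The study precipitated an HLH-26 fusion to eGFP with an antibody against GFP from whole Caenorhabditis elegans. Both biological replicates are young adults at 66 hours of strain RW12174, which was made by CRISPR insertion and carries the allele st12174, an hlh-26::GFP fusion with a loxP-flanked unc-119(+) marker, in an unc-119(tm4063) III background. The animals were grown from L1 larvae that had been starved after bleaching, and sonication of the chromatin gave 200 to 800 bp fragments. The samples form 1 group with no second condition, all tissues of the animal are pooled, and a control experiment named in the labels was not analysed here.

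HLH-26 belongs to the REF-1 family of worm basic helix-loop-helix (bHLH) proteins, which carry a pair of bHLH domains and are related to the Hairy and Enhancer of split repressors. Several REF-1 family genes are targets of Notch signalling in the embryo. Proteins with bHLH domains bind DNA as dimers at short motifs of the E-box type, and such sites are usually studied in promoters and enhancers.

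The irreproducible discovery rate (IDR) ranks peaks by how well they recur between 2 lists. A score of 540 or more stands for an IDR of 5.00% or less, and the authors' thresholded lists hold peaks with a score of 830 or more, an IDR of at most 0.986%. Signal is the peak caller's own enrichment value, its scale is not stated, and it is compared only within a list. Without read counts in the lists, the depth is unknown. Intervals on shares and on peaks per Mb cover counting error over peaks only, and no test was made, because peaks of 1 experiment are not replicates. Neighbouring peaks can overlap: 5914 of the coding exon peaks (49.4%) overlapped another one, and merging them left 8749 separate regions, so the intervals are too narrow.

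The sequences within 50 bp of 8 of the 14 coding exon summits in the thresholded list are shown because they span its range of base composition. They are RefSeq reference sequence (WBcel235, the ce11 build) on the gene's strand, cut to the coding segment, with matches to the bHLH motifs CACNAG and CAGCTG on either strand in capitals. The icl-1 sequence lies at chrV:727641-727741, lgc-31 at chrV:15513008-15513065, T21H3.5 at chrV:1161182-1161282 and idpc-5 at chrV:9622554-9622654, all on the minus strand. The plus-strand sequences are col-19 at chrX:422259-422359, cut-2 at chrV:13415703-13415803, ssq-1 at chrIV:9853027-9853127 and col-108 at chrIV:1769230-1769330.
icl-1: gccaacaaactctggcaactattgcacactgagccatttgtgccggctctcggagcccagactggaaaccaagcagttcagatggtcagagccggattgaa
lgc-31: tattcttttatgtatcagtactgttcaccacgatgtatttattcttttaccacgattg
T21H3.5: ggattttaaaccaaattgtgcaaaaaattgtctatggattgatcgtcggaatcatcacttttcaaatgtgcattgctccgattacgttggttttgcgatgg
col-19: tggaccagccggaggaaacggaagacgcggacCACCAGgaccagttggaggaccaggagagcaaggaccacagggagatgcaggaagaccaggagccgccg
cut-2: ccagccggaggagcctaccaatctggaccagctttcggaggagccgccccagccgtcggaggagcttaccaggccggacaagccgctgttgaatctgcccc
ssq-1: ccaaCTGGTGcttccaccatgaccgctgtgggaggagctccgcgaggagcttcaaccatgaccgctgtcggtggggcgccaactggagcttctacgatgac
col-108: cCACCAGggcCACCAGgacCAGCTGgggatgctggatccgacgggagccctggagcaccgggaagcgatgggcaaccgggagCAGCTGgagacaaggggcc
idpc-5: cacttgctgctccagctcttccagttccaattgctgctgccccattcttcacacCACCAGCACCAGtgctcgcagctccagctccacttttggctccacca
The collagen, cuticlin and sperm protein sequences are GC-rich, from 62.4 to 70.3%, while those of lgc-31 and T21H3.5 are AT-rich, at 37.6% GC or less.

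Coding sequence held more ranked peaks per Mb than introns or intergenic sequence. The density was 543 peaks per Mb of open coding sequence (534 to 553), against 298 in introns (292 to 305), 245 in intergenic sequence, 356 in UTRs and 354 in promoter windows. Sequence near short RNA genes was denser still, at 1192 per Mb. In each replicate's own ranked list the coding density was 307 per Mb in replicate 1 (6767 of 19376 nuclear peaks, 34.9%) and 377 per Mb in replicate 2 (8301 of 24274 peaks, 34.2%). Coding sequence exceeded introns 1.95-fold in replicate 1 and 1.83-fold in replicate 2.

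GC content moved with this difference. Median GC within 50 bp was 40.6% over open coding sequence and 44.6% at coding exon summits, against 32.7% over introns and 38.6% at intron summits. Along 9 GC steps the coding density rose from 100 peaks per Mb below 25% GC to 374 at 35 to 40%, 534 at 40 to 45%, 1041 at 50 to 55% and 1751 at 60% or more. Introns had 539.5 per Mb at 40 to 45%, 991 at 50 to 55% and 1678 at 60% or more, with intervals that overlap those of coding sequence. At low GC the classes were further apart, with 198 per Mb in coding sequence (169 to 230.1) and 149 in introns (140.2 to 159) at 25 to 30%, and 269 (251 to 287) and 239 (228 to 250.5) at 30 to 35%. When introns were reweighted to the GC steps of coding sequence, their density was 528 per Mb, and the coding over intron ratio went from 1.82 to 1.03. The same step took it to 1.08 in replicate 1 and 1.03 in replicate 2. Against intergenic sequence the ratio went from 2.22 to 1.34, with 1.43 in replicate 1 and 1.41 in replicate 2. Against UTRs it turned direction, from 1.53 to 0.934, with 0.835 in replicate 1 and 0.902 in replicate 2. Against promoter windows it went from 1.53 to 1.10. The part of base composition in this difference was not tested beyond this reweighting.

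**Figure D1:**
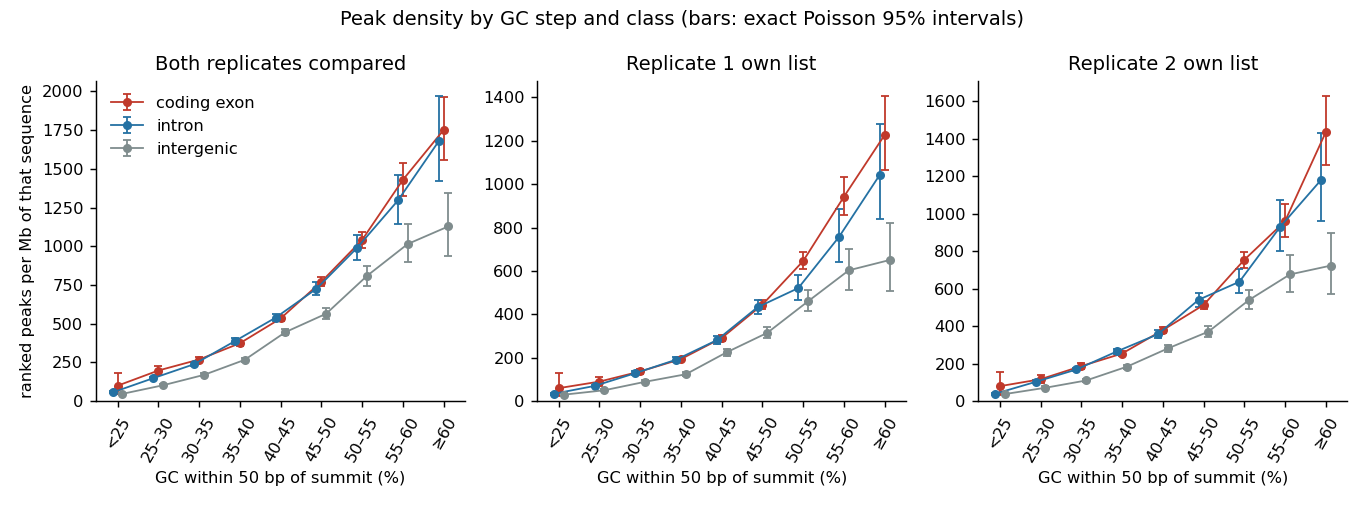
Ranked peaks per Mb (vertical axis) by GC within 50 bp (horizontal axis, in steps) for coding exons, introns and intergenic sequence, in the list of both replicates compared and in each replicate's own list; bars are exact Poisson 95% intervals. In the list of the replicates compared, coding exons lie above introns below 35% GC and near them in most higher steps, at 534 and 539.5 per Mb in the 40 to 45% step, where intergenic sequence has 446.

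Coding exon peaks were of ordinary strength. Their median signal was 26.5 (quartiles 18.7 and 35.9), against 25.1 for introns, 25.3 for intergenic sequence and 36.4 near short RNA genes. Within the list the median member stood at percentile 52.0. Signal was weakly related to GC (Spearman's rho 0.19 over 11973 peaks of the same libraries) and hardly to the length of the coding segment (rho 0.09) or the position in the coding sequence (rho -0.01). The median signal was 25.5 at 40 to 45% GC and 36.1 at 60% or more.

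A minority of the peaks overlapped a ranked peak in the own list of each replicate. The main list already compares the replicates, so the shares below describe overlap with separate lists only. A ranked peak of replicate 1's own list overlapped 54.3% of the coding exon peaks by at least 1 bp, and one of replicate 2's list overlapped 57.5%. Both lists did so for 4071 peaks (34.0%, 33.2 to 34.9%), against 31.1% of all nuclear ranked peaks, 29.5% of intron peaks, 25.2% of intergenic peaks and 53.2% of peaks near short RNA genes. The share was 23.0% in the lowest of 5 equal signal classes of the nuclear list, 34.4% in the next to highest and 58.9% in the highest, where intron peaks reached 53.5%. It was 21.9% at 25 to 30% GC and 55.4% at 60% or more. Among the 4071 peaks the signals in the replicates' own lists were weakly related (rho 0.20).

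Few coding exon peaks passed the authors' threshold. The thresholded list of the replicates compared held 14 of the 11973 (0.117%, 0.0639 to 0.196%), against 0.215% of all nuclear ranked peaks. Of the 76 thresholded nuclear peaks, 35 lay near short RNA genes (4.50% of that class). The share was 0.0660% in introns, 0.0686% in intergenic sequence and 0.280% in promoter windows, and the intervals of introns (0.0242 to 0.144%) and intergenic sequence (0.0223 to 0.160%) overlap that of coding exons. At the weaker score of 540 it was 65 coding exon peaks (0.543%), against 0.774% of all, 0.451% in introns and 0.508% in intergenic sequence. These 65 lie in 59 genes, with signals from 10.8 to 104. Of the 65, 60 overlapped ranked peaks of both replicates. Neighbours in the same gene, as in gex-2, can overlap the same replicate peak, so the 60 are not all separate. The median GC of the 65 was 51.5% against 44.6% for the other members. In the replicates' own thresholded lists there was no coding exon peak in replicate 1. A count of 0 of 6767 allows a share of up to 0.0443% (3 counts over 6767), and the exact binomial interval ends at 0.0545%. Over all nuclear peaks of replicate 1 the share was 8 of 19376 (0.0413%), which lies below both limits. In replicate 2 there was 1 of 8301 (0.0120%), against 12 of 24274 nuclear peaks (0.0494%). It lay in F53F10.1 (chrI:3834172-3834667, signal 50.74 in that list). None of the 14 overlapped that peak or any other thresholded in either replicate alone, but these lists hold only 8 and 12 nuclear peaks. The other thresholded list of the series, with 60 nuclear peaks, overlapped 6 of the 14. Neither overlap was counted for all 76 thresholded peaks, so they are not traits of coding exon peaks.

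The 14 peaks lie in 14 genes and had signals from 78.8 to 104 in the list of the replicates compared, at ranks 18 to 122 of the nuclear peaks. The highest was in icl-1, the glyoxylate cycle enzyme that joins isocitrate lyase and malate synthase (chrV:727429-727952, second of 5 coding segments). Its signal was 103.6, with 51.76 in replicate 1 (rank 67) and 40.79 in replicate 2 (rank 151). The R12E2.13 peak (chrI:4177291-4177814) had signals of 101.6, 61.40 in replicate 1 and 33.66 in replicate 2, so that it stood at rank 13 in one replicate and 568 in the other. The peak in lgc-31, a ligand-gated ion channel gene, lay near the end of the coding sequence (94.5% of its length, chrV:15512753-15513276), with signals of 101.0, 55.82 and 44.74 in the same order. It was the most AT-rich of the 14, at 30.7% GC.

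Cuticle genes supplied 4 of the 14. Named collagens, which make up only part of the cuticle genes, held 209 of all 11973 coding exon peaks. Of the 294 members at 60% GC or more, 4 were thresholded, among them the peaks in col-19, col-108 and cut-2. The count in cuticle genes was not compared at equal GC. The peak in col-19, an adult cuticle collagen, lay wholly in coding sequence (chrX:422047-422570, 64.4% GC) and had a signal of 96.22, with 46.38 in replicate 1 and 50.69 in replicate 2. It was the member of the 14 with the highest signal in replicate 2. The collagen col-108 (chrIV:1769018-1769541, 70.3% GC) had 85.06, 47.01 and 43.13, and the collagen col-20 (chrII:4869976-4870499, 56.4% GC) had 79.83, 45.18 and 35.84. The cuticlin gene cut-2 (chrV:13415491-13416014, 66.3% GC) had 91.95, 52.39 and 38.84. All 4 peaks overlapped a ranked peak of each replicate, and all 4 lay in the second and last coding segment.

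A further pair lies in sperm genes. Among all members, major sperm protein genes held 3 peaks, none of them thresholded, and other sperm genes were not counted. The peak in ssq-1, of the sperm-specific family class Q, had a signal of 85.30 (chrIV:9852815-9853338, 62.4% GC), with 41.77 in replicate 1 and 46.75 in replicate 2. The peak in spe-15, a myosin needed for sperm formation (chrI:1446591-1447114), had 79.47 and 46.24 in replicate 1. It was the only peak of the 14 with no overlapping ranked peak in replicate 2's own list. The others are known here by gene name only. Signals of the replicates compared were 89.78 in T21H3.5 (chrV:1160970-1161493, 37.6% GC), 87.57 in Y116A8C.43 (chrIV:17088702-17089225), 81.23 in Y69H2.3 (chrV:18663484-18664007), 79.34 in idpc-5 (chrV:9622342-9622865) and 78.83 in D1044.7 (chrIII:5507975-5508498). In replicate 1 these 5 ran from 38.37 to 53.43 and in replicate 2 from 40.86 to 46.31.

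**Figure D2:**
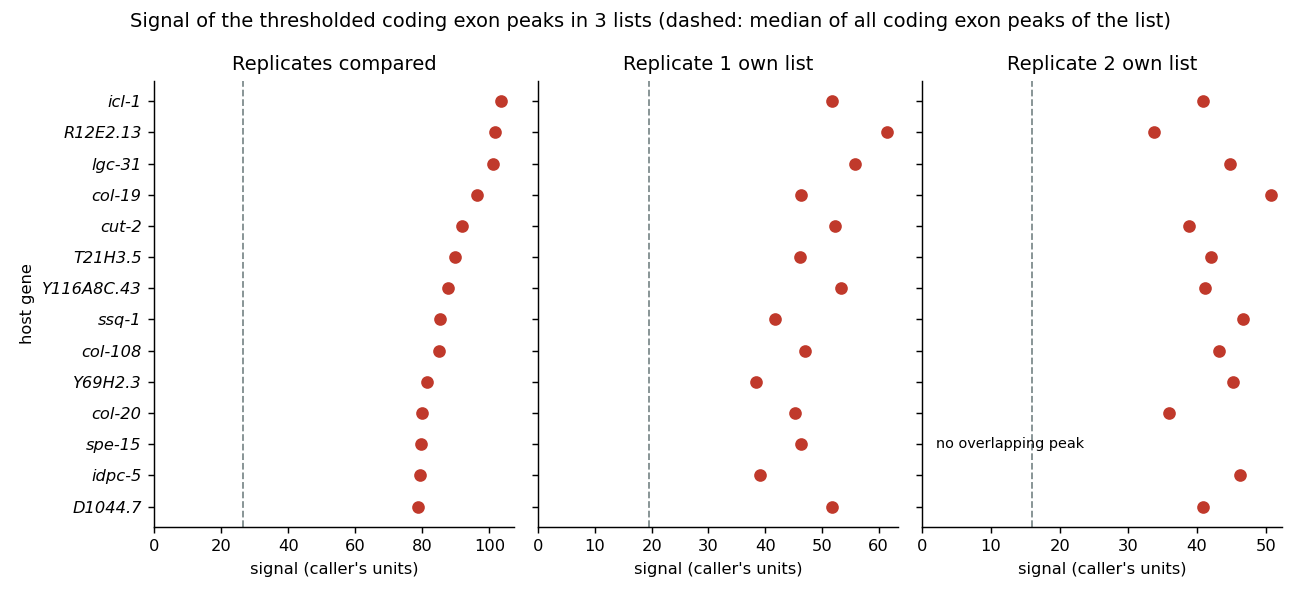
Signal (horizontal axis, in the caller's units, one scale per panel) of the 14 thresholded coding exon peaks by host gene in the list of the replicates compared and in each replicate's own list; the dashed line is the median of all coding exon peaks of that list. Every peak lies above the median of each list in which it overlaps a peak, and spe-15 has none in replicate 2.

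The 14 differed widely in what surrounds the summit. GC ran from 30.7 to 70.3% with a median of 54.0%, with 4 above 60% (col-19, cut-2, ssq-1 and col-108) and 2 below 40% (lgc-31 and T21H3.5). Coding segments were 126 to 831 bp long, and summits lay between 5.13 and 94.5% of the coding sequence. None had a non-coding gene at the summit, which 51 of all members had. CACNAG was present within 50 bp in 6 of the 14, CAGCTG in 2 (col-108 and col-20), CATGTG in 1 (spe-15) and CACGTG in none. Over all coding exon summits the shares were 17.3%, 4.19%, 4.13% and 2.81% in the same order. The counts of the 14 were not compared at equal GC.

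Other strong peaks missed the threshold list. At pot-3, whose product is related to telomere-binding proteins, a peak near the right end of chromosome III (chrIII:13780311-13780834) had signals of 99.75, 47.93 in replicate 1 and 56.52 in replicate 2. That peak and a weaker one in the same gene (signal 25.61) are the 2 members with a score of 830 or more that are absent from the thresholded list. In F56D2.2 the signal was 91.27 (score 589), with 31.39 in replicate 1 and 46.38 in replicate 2. In dos-3, which encodes a Notch co-ligand of the DOS type, it was 88.11 (score 793), with 59.14 in replicate 1 and 30.86 in replicate 2.

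Density was lowest in the first and last steps of the coding sequence, and higher past the middle than before it. The median summit lay at 54.3% of the spliced coding sequence, against 52.4% for all open coding bases. Density was 461 per Mb in the first 10% of the coding sequence (424 to 500.4) and 489.5 to 542 between 10 and 50%. Between 50 and 80% it was 586 to 597, then 575 in the next step and 471 in the last 10%. With GC held at 40 to 45% the first and last steps had 456 and 458 per Mb and the step from 70 to 80% had 618. Bases within 100 bp of a transcript start are outside the rule, which leaves less sequence in the first step.

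Longer coding segments held more peaks per base. Density was 357 per Mb in segments under 100 bp, 486 at 200 to 300 bp, 718 at 500 to 1000 bp and 801 at 1000 to 2000 bp (747 to 858), then 676 in longer ones. At 40 to 45% GC the same steps gave 438, 495, 633, 694 and 474 per Mb. The share of the 524 bp around a base that is coding showed the same order, from 295 per Mb where under 20% was coding to 717 where over 80% was. At equal GC these were 345 (225 to 505) and 644 (610.2 to 679). First, internal and last segments differed little, at 554, 547 and 519.6 per Mb.

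**Figure D3:**
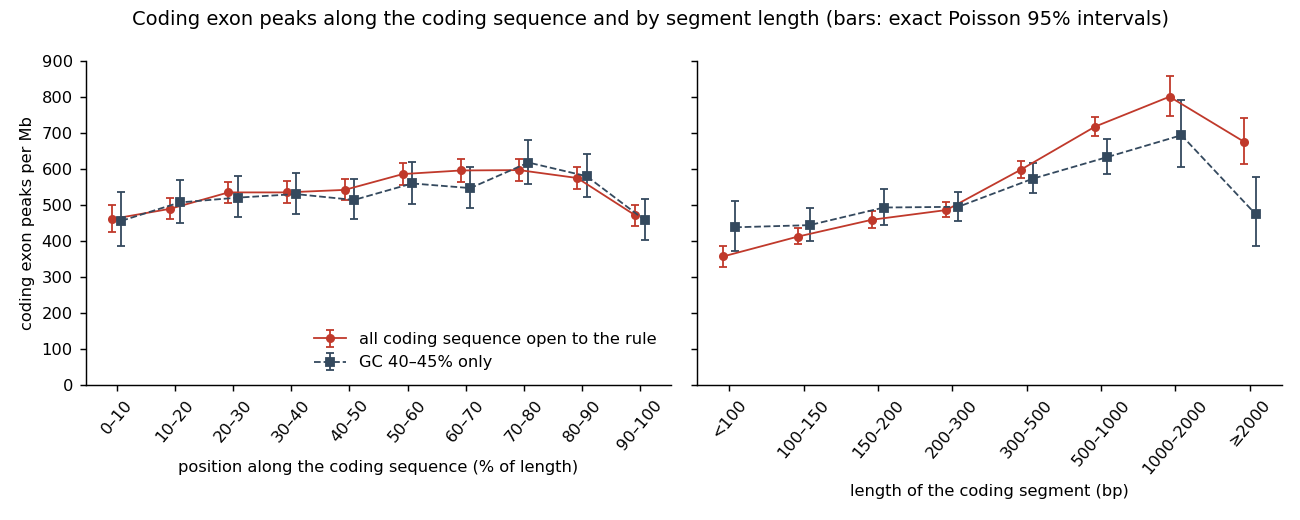
Coding exon peaks per Mb (vertical axis) by position along the coding sequence in 10% steps (left) and by length of the coding segment in bp (right), over all open coding sequence and over bases with 40 to 45% GC; bars are exact Poisson 95% intervals. Density is lowest at both ends of the coding sequence, 461 and 471 per Mb, and rises with segment length from 357 to 801 before the longest step.

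In the list of the replicates compared, the X chromosome carried the most coding exon peaks per Mb. Density was 691 per Mb of open coding sequence on X (663 to 721, 2246 peaks) and 518 on the autosomes together (508 to 528), which ran from 479 on chromosome I to 551 on II. At 40 to 45% GC it was 681 on X and 506 on autosomes. The replicates differed in this. In replicate 2's own list X had 516 per Mb and autosomes 353, and 509 against 354 at equal GC. In replicate 1 the values were 344 and 301, and at equal GC 305 (271 to 342) against 289 (274 to 304), where the intervals overlap. There chromosome III had 340.0 per Mb in all, and at equal GC chromosomes II (311), III and V (306) were above X. In the list of the replicates compared, introns showed the same order, with 400.2 per Mb on X and 278 on autosomes.

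On autosomes the outer parts of the chromosomes, meaning the 3 outermost of 10 equal parts on each side, had 573 coding exon peaks per Mb and the middle 458. The outer coding sequence is richer in GC, with medians of 42.6% and 39.6%. At 40 to 45% GC the order turned, with 496 per Mb in the outer parts (469 to 524) and 517 in the middle (489 to 546). On X the outer parts had 746 and the middle 624 per Mb, and 692 and 668 at equal GC.

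**Figure D4:**
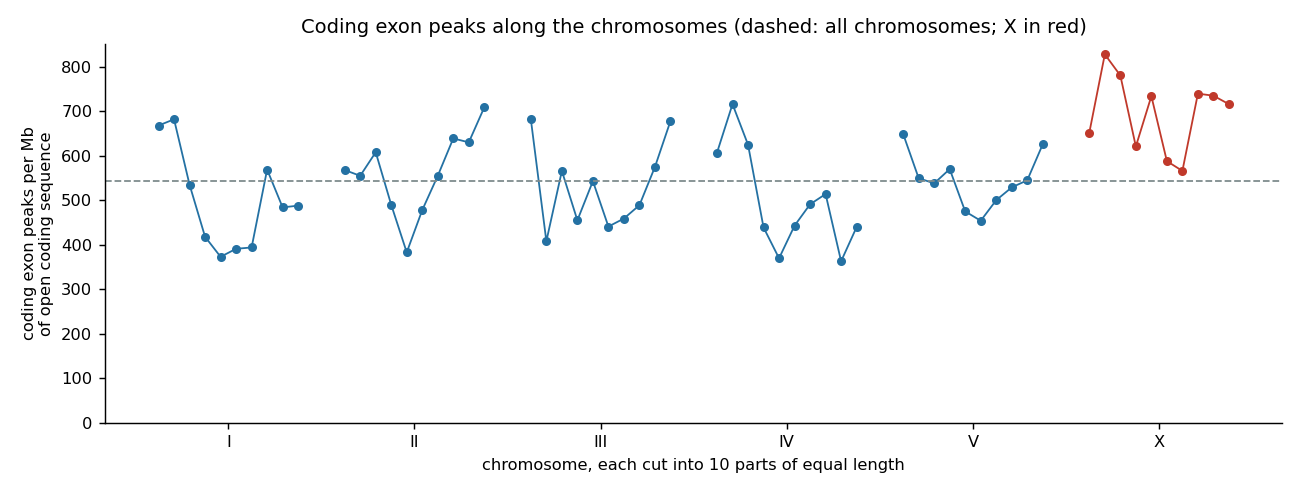
Coding exon peaks per Mb of open coding sequence (vertical axis) in 10 equal parts of each chromosome (horizontal axis); the dashed line is the value for all chromosomes, 543 per Mb. On most autosomes the ends lie above the middle, and every part of X lies above the line.

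The peaks fell in 6550 host genes, 33.3% of the 19692 genes with open coding sequence. Of these 3558 held 1 peak, 1867 held 2 and 1125 held 3 or more. Hosts had more open coding sequence than the other genes (median 1.19 kb against 0.749 kb) and higher GC (42.4% against 39.5%). The genes with the most peaks have long coding sequences. The spectraplakin gene vab-10 held 25 peaks (14 separate regions) in 22.8 kb, and ttn-1, which encodes a titin-like protein, held 25 (12 regions) in 55.1 kb. The ankyrin gene unc-44 held 23, the kettin gene ketn-1 held 21, and the twitchin gene unc-22 and the obscurin-like gene unc-89 held 19 each. Per kb of coding sequence these differ: ttn-1 had 0.454 peaks per kb, vab-10 had 1.10 and ketn-1 had 1.49, against 0.543 over all open coding sequence. Mean GC was 41.2% in ttn-1, 48.8% in vab-10 and 48.5% in ketn-1. Ranked peaks of both replicates overlapped 8 of the vab-10 peaks and 9 of the ttn-1 peaks, close to the 34.0% of all members.

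Among genes with at least 3 kb of open coding sequence the most per kb was 2.55 in Y69H2.3 (8 peaks in 3 regions). Next were mca-2, a plasma membrane calcium pump gene (2.36, 8 peaks in 3 regions), sym-4 and H11E01.3 (2.29 each), and pgp-9, a P-glycoprotein transporter gene (2.09). Mean GC of these genes ran from 45.5% (sym-4) to 51.5% (Y69H2.3). All coding sequence had 771 peaks per Mb at 45 to 50% GC and 1041 at 50 to 55%. No peak lay in 204 of the 957 genes with at least 3 kb. Named after their values were seen, the longest include F55F10.1 (12.9 kb, 45.7% GC), the dynein heavy chain gene che-3 (12006 bp, 36.4% GC) and the checkpoint kinase gene atl-1 (7.24 kb, 37.1% GC). In the replicates' own lists F55F10.1 had 1 coding exon peak in replicate 1 and 3 in replicate 2, che-3 had 1 in replicate 1 and none in replicate 2, and atl-1 had none in either. Neither hlh-26, the tagged gene, nor unc-119, the gene of the rescue marker, held a coding exon peak, with 0.549 and 0.496 kb of open coding sequence.

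Gene families differed widely in density and in GC. Of the 20 families, 3 had an interval that did not include the value at their own GC. Ribosomal protein genes and muscle genes were above it, and chemoreceptors were below it. These intervals count overlapping peaks separately and are too narrow. Merging left 25 regions of 30 peaks in ribosomal protein genes, 89 of 158 in muscle genes and 290 of 375 in chemoreceptors. For all genes it left 8749 of 11973. Whether the 3 differences hold for separate regions at equal GC was not tested. The named collagens had 209 peaks in 123 of 176 genes, 1358 per Mb (1180.2 to 1555), at a mean GC of 53.9%. All coding sequence at the same GC steps would give 183, a ratio of 1.14. Of the 209 peaks 56.9% overlapped both replicates' lists, against 34.0% of all members, and 3 were in the thresholded list (col-19, col-108 and col-20). Over all members that overlap rose with GC, to 42.7% at 50 to 55%, 47.1% at 55 to 60% and 55.4% at 60% or more. For collagens it was not compared at equal GC. Cytosolic ribosomal protein genes had 30 peaks in 25 of 67 genes, 1510.0 per Mb (1019 to 2156), 1.64 times the value at their GC. Their strongest peak, in rpl-19, had a signal of 87.4, with 52.4 in replicate 1 and 32.5 in replicate 2.

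Muscle sarcomere and attachment genes had 158 peaks in 21 of 31 genes, 827 per Mb (703 to 967) and 1.22 times the value at their GC (680 per Mb), and these peaks formed 89 separate regions. The strongest was in the pharyngeal myosin gene myo-2 (signal 70.2). Germline and early embryo genes had 44 peaks in 23 of 31 genes, 897 per Mb and a ratio of 1.24, led by pie-1, which keeps the germline precursors from transcribing somatic genes (signal 79.9). The yolk protein genes had 25 peaks in 4 of 6 genes (vit-1, vit-2, vit-5 and vit-6), 877 per Mb and a ratio of 1.11, led by vit-6 (signal 52.9). Heat shock proteins and chaperones had 43 peaks and a ratio of 1.11, led by hsp-6, a mitochondrial Hsp70 (signal 70.5). C-type lectins had 154 peaks (1.17, led by clec-87), nuclear hormone receptors 151 (1.12, led by nhr-14), and dyneins and kinesins 53 (1.05, led by bmk-1).

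Apart from the bHLH genes outside the REF-1 family, the point values of other families were below that at their GC. Outside chemoreceptors, the intervals of these families included that value. Chemoreceptor genes had 375 peaks in 268 of 1315 genes, 327 per Mb (295 to 362) against 376 at their GC, a ratio of 0.869, at a mean GC of 36.3%. Their strongest peak was in srbc-19 (signal 68.4). The ratio was 0.889 for F-box genes (104 peaks, led by fbxa-199), 0.810 for UDP-glucuronosyltransferases (30, led by ugt-52), 0.738 for cytochrome P450s (32, led by cyp-42A1), 0.839 for neurotransmission genes (32, led by the acetylcholine transporter gene unc-17) and 0.889 for ceh homeobox genes (28, led by ceh-36). Histone genes had 6 peaks in 6 of 70 genes (ratio 0.587, led by his-1), and major sperm protein genes 3 in 3 of 31 (0.454), in msp-36, msp-32 and msp-142. Both families include near-identical copies. The sources used here do not say how reads that match several copies were handled, so these counts are uncertain.

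Of the 6 REF-1 family genes only ref-1 held a coding exon peak, with a signal of 17.9 and no overlap in either replicate's own list. Replicate 2's own list held 1 coding exon peak elsewhere in ref-1. The other bHLH genes had 20 peaks in 10 of 34 genes, 674 per Mb (412 to 1041) and a ratio of 1.14, led by hif-1, the hypoxia factor (signal 59.8, with 32.0 in replicate 1 and 29.0 in replicate 2). Core Notch pathway genes had 13 peaks in 8 of 16 genes, 472 per Mb (251 to 808) and a ratio of 0.825. The strongest was in the Delta-like ligand gene lag-2, with a signal of 59.3, no overlapping peak in replicate 1 and 36.4 in replicate 2. Replicate 1's own list held 1 coding exon peak elsewhere in lag-2. The intervals of these small lists span both the density of all coding sequence, 543 per Mb, and the value at their own GC.

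**Figure D5:**
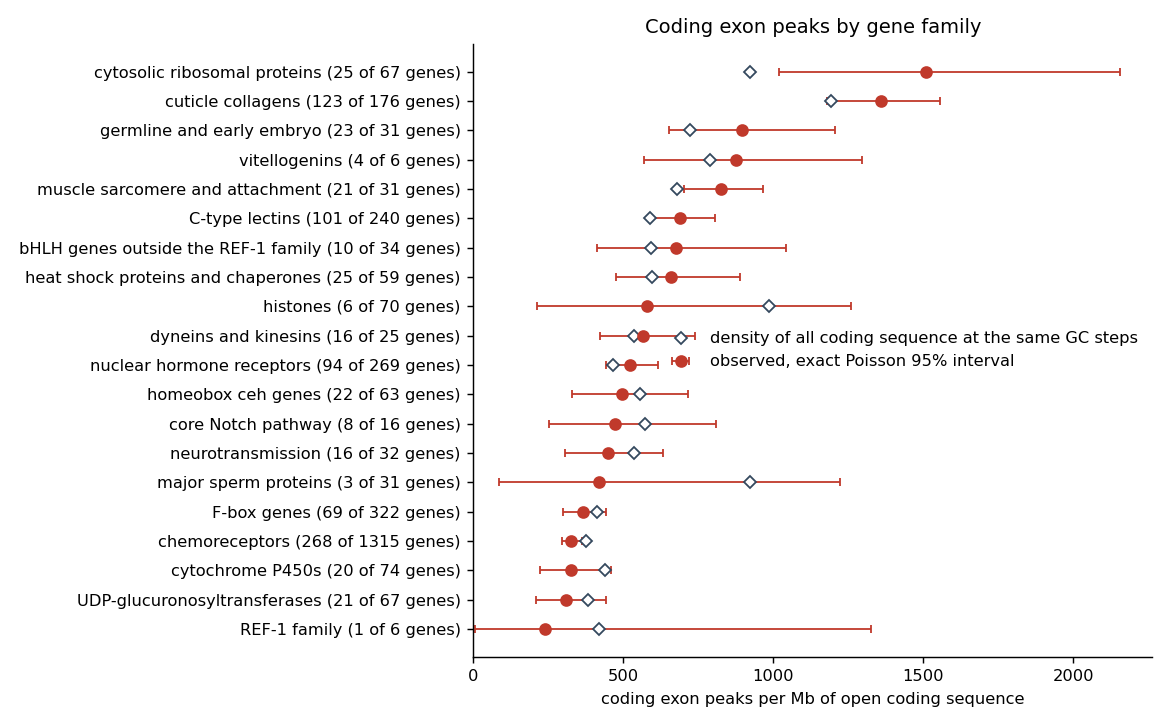
Coding exon peaks per Mb of open coding sequence (horizontal axis) for 20 gene families (vertical axis, with host genes of all genes in the family); filled points with exact Poisson 95% intervals are observed, open diamonds are the density of all coding sequence at the family's GC steps. Ribosomal protein genes at 1510.0 and collagens at 1358 per Mb are highest, and chemoreceptors, cytochrome P450s and UDP-glucuronosyltransferases are among the lowest.

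At coding exon summits the shares with a bHLH motif were close to those at coding positions of the same GC. CACNAG, searched on both strands within 50 bp, was present at 17.3% of the summits (16.6 to 18.0%), against 14.2% of all open coding positions and 16.6% of positions weighted to the GC of the summits. The canonical E-box CACGTG was present at 2.81% (2.53 to 3.13%), against 2.43% of positions and 3.09% at summit GC. CACGCG was present at 179 summits (1.29 to 1.73%), against 1.09% and 1.49%. For CATGTG the shares were 4.13%, 3.88% and 3.97%, for CATGCG 1.97%, 1.56% and 1.81%, and for CAGCTG 4.19%, 3.48% and 4.33%, in the same order. Intron summits held CACNAG at 10.6%, against 10.2% of intron positions at their GC. The 6 motifs can overlap one another only in part, and a match here is a description of the letters, not a site.

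Signals on both sides of the rule's edges were close. Coding summits in the last 50 bp of a promoter window, just outside the rule, had a median signal of 25.5 (358 peaks), and members in the next 50 bp had 26.7 (314 peaks). Coding summits in the last 100 bp of the distance kept from short RNA genes had quartiles of 18.4 and 42.7 (40 peaks), and members in the next 100 bp had 19.1 and 39.1 (44 peaks).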

How the data were processed

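The data are 8 peak lists on the ce11 build (the WBcel235 assembly) from ChIP-seq of 2 biological replicates of 1 group. For each replicate, and for the series, the authors deposited ranked and thresholded lists. The deposited signal is the peak caller's own value for each peak, the deposited score is the global IDR rescaled to at most 1000, and the deposited −log10 values are the local and global IDR, of which the global was used. Neither the peak caller nor the IDR software is named in the sources used here. The main list compares the replicates with each other.

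The gene models are those of Ensembl release 115, and RefSeq supplied the sequence. Each summit took the first class that held it, in the order short RNA gene, promoter window, coding segment, UTR, intron and intergenic. Position was measured in the longest coding transcript at the summit. Densities were divided by the bases of each class and compared within GC steps. No hypothesis test was made. Binomial intervals are Clopper-Pearson and density intervals exact Poisson, at 95%.

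Genes named are the hosts of thresholded peaks and of the 10 peaks of highest signal that overlapped both replicates' own lists. Further genes are the 5 with the most peaks, the 5 with the most per kb, and hlh-26 and unc-119. The strongest peak of each of 20 gene families is named too. The members and the lists were chosen with earlier results of these data known. Alternatives were the other series list, each replicate's own list, stronger peaks, merged peaks and other windows. The steps were tested on simulated data. Computation used scipy 1.17.1, pandas 2.3.3 and numpy 2.4.6 under Python 3.11.15.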

Additional observations from a re-analysis of the deposited data

How the results depend on the processing

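Each of 8 results was recomputed under other lists, windows and overlap rules. Of 43 alternative values, 18 moved by no more than the spread between the replicates' own lists, or stayed within the interval of the main value, and 25 moved further. That spread rests on 2 values. It was 0 for median GC and 0.0929 percentage points for CACNAG, so other windows were bound to count as moved. The 2 counts are therefore no measure of robustness. The share of nuclear ranked peaks in coding exons (33.9%) was 34.2% to 34.9% without one replicate, 23.8% among peaks with a score of 540 or more, 35.3% in the stronger part of the list (signal above the median of nuclear peaks) and 29.4% with a promoter window of 1000 bp upstream to 200 bp downstream. The density of coding sequence over UTRs, introns and intergenic sequence together (1.97) was 2.00 to 2.09 without one replicate, 2.14 in the stronger part and 1.16 after reweighting the rest to the GC of coding sequence, a setting added with the data in view. The share past the threshold (0.117%) was 0.0747% in the other series list, 0.00 to 0.0120% without one replicate and 0.543% at a score of 540. The share found in both replicates' lists (34.0%) was 25.2% when at least 50% of the shorter peak had to overlap, 24.8% with the summit inside the replicate's peak, 43.0% in the stronger part and 31.1% after merging overlapping peaks, likewise added after seeing the data. The median signal percentile (52.0) was 51.4 to 51.9 without one replicate and 52.6 with merged peaks. Median GC at summits (44.6%) was 45.1% within 25 bp, 43.3% within 100 bp and 45.5% in the stronger part. CACNAG was present at 9.18% of summits within 25 bp and 29.7% within 100 bp. The median position (54.3%) was 53.9 to 54.1% without one replicate and 54.0% in the stronger part.

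No paired analysis was possible because there is 1 group and no comparison between groups. The unknown depth, the overlap between neighbouring peaks and the pooling of all tissues limit every value. The control experiment was not analysed here. From these lists, enrichment at a coding exon and recovery of that sequence in any precipitation cannot be told apart. Causes of the changes under these settings were not tested, except that a wider motif window holds more positions.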
